A study of Mus musculus with 29 samples.

Results

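The genes described here are 38 genes of ribosome biogenesis and MYC-driven growth, given as a list of symbols: 3 subunits of RNA polymerase I, 7 nucleolar and early pre-rRNA factors, 5 proteins of small nucleolar ribonucleoproteins (snoRNPs), 10 small subunit assembly factors, 9 large subunit assembly factors, and 4 genes of translation initiation and pyrimidine synthesis. All 38 were on the array, among 18193 genes with a probe set that the annotation assigns to a single gene. They had 86 such probe sets, and the one with the highest mean over all samples stood for each gene. Signals are log2 values, so a difference of 1 is a doubling. Expression was profiled in mice of strain 129X1/SvJ that all carry the TH-MYCN transgene, in which the tyrosine hydroxylase promoter drives human MYCN in the sympathoadrenal lineage and neuroblastoma arises. The mice were either wild type or deficient for caspase-8, the protease that starts apoptosis downstream of death receptors. The 24 primary abdominal tumours comprised 7 wild type and 17 deficient samples, and the 5 total bone marrow samples comprised 2 wild type and 3 deficient samples. No group lacks the transgene, so the comparisons below set tumour against marrow and genotype against genotype, not MYCN against no MYCN. Ages are not given in the sources used here, nor is the cell type in which caspase-8 is missing or whether any samples share an animal. The p-values therefore cover only the spread between these samples.

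Ribosome production starts in the nucleolus, where RNA polymerase I transcribes the precursor of the ribosomal RNAs. Box C/D and box H/ACA snoRNPs modify that RNA, and separate sets of assembly factors cut, fold and export the small and the large subunit. MYC and MYCN bind E-box sequences, with CACGTG as the canonical form, near the start sites of many genes of this pathway, and high ribosome output is a textbook feature of MYC-driven tumours, MYCN-amplified neuroblastoma among them.

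The E-box is shown for the members that hold it, because it is the sequence through which MYC proteins are known to reach these genes. RefSeq start-site windows of build GRCm38.p6, from 250 bases before to 50 after the start, were matched by symbol for 32 members, some with more than 1 start. CACGTG, which reads the same on both strands, was in the windows of 10 of the 32 members (31.2%), in 7.15% of all 32851 windows and in those of 10.2% of 14452 array genes. Among windows with a C+G content of 60% or more it was in 10.8%. The members' windows were richer in C+G, with a median of 56.7% against 52.7%. The pair CG, which CACGTG contains, occurred a median of 20.5 times in the members' windows against 7.0 times in all windows. The matches follow, 5′ to 3′ on the gene's strand, with the E-box in capitals and up to 10 bases on either side.
Tsr1, chr11:74898094-74898119, plus strand: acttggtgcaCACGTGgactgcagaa
Utp20, chr10:88826765-88826787, minus strand: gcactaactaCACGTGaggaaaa
Wdr43, chr17:71616222-71616247, plus strand: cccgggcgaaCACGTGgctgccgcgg
Mybbp1a, chr11:72441357-72441376, plus strand: cttctgagccCACGTGtttg
Eif4a1, chr11:69672597-69672622, minus strand: atcgcctccgCACGTGtaaaggtgct
Grwd1, chr7:45830740-45830765, minus strand: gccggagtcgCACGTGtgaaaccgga
Eif4e, chr3:138527030-138527055, plus strand: cgccagcgacCACGTGatcacttttt
Eif4e, chr3:138527194-138527219, plus strand: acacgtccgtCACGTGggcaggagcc
Nop2, chr6:125131813-125131838, plus strand: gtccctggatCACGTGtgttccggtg
Pes1, chr11:3963967-3963992, plus strand: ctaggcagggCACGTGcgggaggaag
Pno1, chr11:17211540-17211562, minus strand: tacaaccacgCACGTGttcctct

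The E-boxes of Eif4a1 and Nop2 lie before the start site. Those of Eif4e lie before the second of its 2 RefSeq starts and downstream of the first, at which the gene begins. The 250 bases before these starts are shown for these 3 genes, which take part in cap-dependent initiation (Eif4a1, the RNA helicase, and Eif4e, the cap-binding protein) and in methylation of large subunit rRNA (Nop2).
Eif4a1, chr11:69672424-69672673, minus strand: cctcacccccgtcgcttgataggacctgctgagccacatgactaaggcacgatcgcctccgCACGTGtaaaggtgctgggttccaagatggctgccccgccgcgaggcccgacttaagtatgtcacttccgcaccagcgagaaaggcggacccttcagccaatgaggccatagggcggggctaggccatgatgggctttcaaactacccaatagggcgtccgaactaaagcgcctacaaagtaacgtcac
Eif4e, chr3:138527018-138527267, plus strand: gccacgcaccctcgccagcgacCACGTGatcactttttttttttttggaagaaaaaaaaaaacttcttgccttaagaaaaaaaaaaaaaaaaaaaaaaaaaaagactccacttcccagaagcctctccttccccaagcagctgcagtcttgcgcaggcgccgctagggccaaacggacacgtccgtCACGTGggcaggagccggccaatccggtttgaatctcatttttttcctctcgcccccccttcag
Nop2, chr6:125131633-125131882, plus strand: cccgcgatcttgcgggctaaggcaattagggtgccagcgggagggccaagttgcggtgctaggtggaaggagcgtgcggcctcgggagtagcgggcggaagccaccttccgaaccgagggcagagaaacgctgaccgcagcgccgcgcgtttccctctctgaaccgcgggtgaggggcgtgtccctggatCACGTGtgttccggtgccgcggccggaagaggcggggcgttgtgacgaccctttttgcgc
The non-canonical E-box CACGCG, searched on both strands, was in the windows of 11 of the 32 members, in 9.27% of all windows, in those of 16.2% of array genes and in 22.9% of windows with a C+G content of 60% or more. CGGAAG, the core bound by ETS-family factors, was in those of 18 of the 32 members, in 16.9% of all windows, in those of 27.1% of array genes and in 30.5% of the C+G-rich windows, also on both strands. A match is a stretch of letters and does not show that a factor binds.

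Most of the ribosome biogenesis genes had higher signals in tumours than in bone marrow, a tissue that itself divides and makes ribosomes. In limma's moderated fit over all genes, with Benjamini-Hochberg adjusted p under 0.05 as the call, 30 of the 38 members were higher in tumours, 2 were lower and 6 were not called. The background was wide: 34.2% of all genes were called higher and 42.2% lower. The median member difference was 0.76, against -0.10 over all genes, and 34 of 38 members had a positive difference against 43.5% of genes. The 24 tumours all lay above the 5 marrow samples for 22 members, a pattern held by 20.9% of all genes. They all lay below for 1 member, Eif4ebp1, a pattern held by 16.9% of all genes, and the groups overlapped for the other 15. Tumour and marrow differ in nearly all their cells, and in bulk RNA fewer cells of a type and less RNA per cell cannot be told apart. The mean of 11 sympathoadrenal markers ran from 8.88 to 9.89 in tumours and from 4.27 to 4.44 in marrow, and that of 19 blood cell markers from 4.56 to 5.56 and from 10.25 to 10.90.

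**Figure D1:**
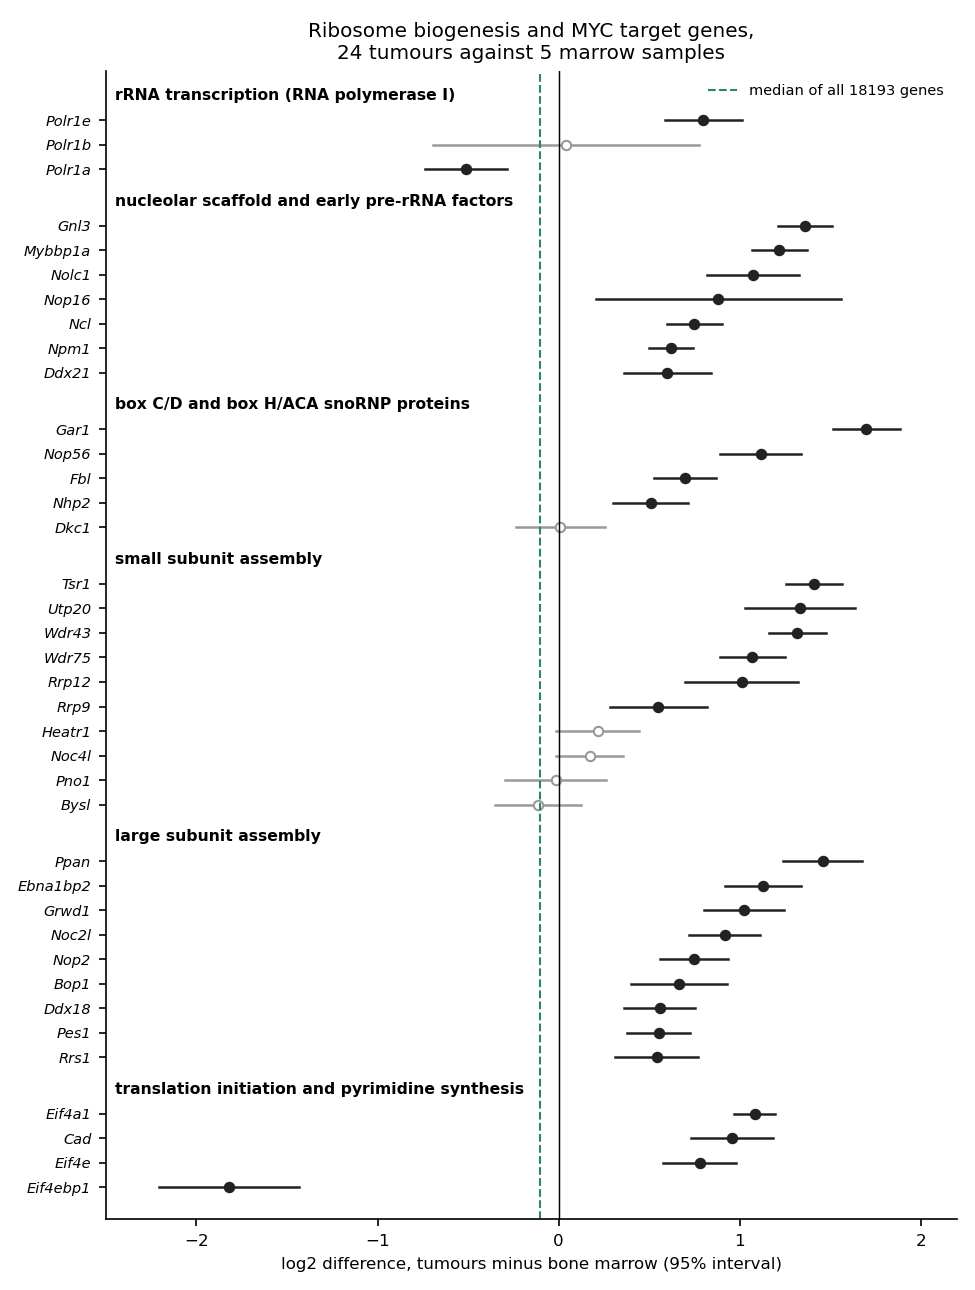
Log2 difference between tumours and bone marrow (x axis) for the 38 genes, grouped by role (y axis); points are limma estimates, lines 95% intervals, filled points calls at adjusted p under 0.05 and open points no call. The dashed line is the median of all genes, -0.10; 30 filled points lie to the right of 0 and 2, Eif4ebp1 and Polr1a, to the left.

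The 3 RNA polymerase I subunits differed from each other. Polr1e, a subunit that associates with the enzyme's core, was higher in tumours by 0.80 (SE 0.10, limma adjusted p = 5.1e-08). Polr1a, the largest catalytic subunit, measured 7.20 and 7.43 in the wild type marrow samples and 7.38, 7.19 and 7.62 in the deficient ones. In wild type tumours it ran from 6.46 to 7.04 with a median of 6.84, and in deficient tumours from 6.38 to 7.51 with a median of 6.86. Most tumours lay below the marrow samples but the groups overlapped, and the difference was -0.51 (SE 0.11, limma adjusted p = 0.00016). Its probe sets disagreed, however. Another probe set of almost the same mean signal gave 0.93 (SE 0.14), 1 more gave -0.25, and the mean of all its probe sets gave -0.0027, so no direction is given for the gene. Polr1b, the second-largest subunit, was not called between the tissues at 0.04 (SE 0.36), and its wide spread in tumours is described below. Of 15 other genes of RNA polymerase I transcription, 13 were called higher and 1 lower, with a median of 0.62. Rrn3, the initiation factor that links the polymerase to the promoter, was higher by 1.67 and Polr1c by 1.30.

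All 7 nucleolar and early pre-rRNA factors were called higher, with a median of 0.88. Gnl3 (nucleostemin), a nucleolar GTPase, was higher by 1.36 (SE 0.07), Mybbp1a by 1.22 (SE 0.07) and Nolc1, a nucleolar phosphoprotein that acts as a snoRNP chaperone, by 1.07 (SE 0.12). Gnl3 measured 9.87 and 9.72 in wild type and 9.53, 9.45 and 9.62 in deficient marrow, and 10.60 to 11.25 over all tumours. No tumour reached down to the marrow samples. The abundant nucleolar proteins nucleolin (Ncl) and nucleophosmin (Npm1) were higher by 0.75 (SE 0.07) and 0.62 (SE 0.06), and the helicase Ddx21 by 0.60 (SE 0.12). Nop16 was higher by 0.88 (SE 0.33, limma adjusted p = 0.018). That call was lost in 6 of 15 alternatives: with arrays centred on their median (0.59, limma adjusted p = 0.099), quantile normalization (0.67), array weights (0.81), wild type samples only (0.92), deficient samples only (0.84) and without wild type marrow 2 (0.74), with limma adjusted p up to 0.13. The 0.88 also joins unlike tumours. On this probe set tumours of the higher title series, described below, averaged 1.39 above marrow and those of the lower series 0.09. A second, weaker Nop16 probe set averaged 5.51 in the lower and 5.38 in the higher series, and 4.36 in marrow.

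Among the snoRNP proteins 4 of 5 were called higher. Gar1, a core protein of box H/ACA snoRNPs, which guide pseudouridylation, had the largest positive difference of all 38 members. The wild type marrow samples measured 8.48 and 8.47, and the deficient ones 8.42, 8.24 and 8.38. In wild type tumours it ran from 9.98 to 10.47 with a median of 10.07, and in deficient tumours from 9.74 to 10.44 with a median of 10.10. The tissues were well separated, by 1.70 (SE 0.09, limma adjusted p = 2.1e-16), a 3.25-fold difference. The box C/D proteins Nop56 and fibrillarin (Fbl, the methyltransferase) were higher by 1.12 (SE 0.11) and 0.70 (SE 0.08), and the box H/ACA protein Nhp2 by 0.51 (SE 0.10). Dkc1, the pseudouridine synthase that works in the same particle as Gar1 and Nhp2, was not called at 0.01 (95% interval -0.24 to 0.26). Its other probe sets gave 0.37 and -0.31, both past the threshold. All 9 measured genes of 11 other snoRNP and snoRNP assembly proteins were called higher, with a median of 0.87, the ATPases Ruvbl1 (1.58) and Ruvbl2 (0.97) among them.

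Small subunit assembly factors split into 6 called higher and 4 not called. Tsr1, which acts on late pre-40S particles, measured 8.49 and 8.64 in wild type and 8.39, 8.27 and 8.65 in deficient marrow. Over all tumours it ran from 9.54 to 10.17, with medians of 9.93 in wild type and 9.95 in deficient samples. All tumours lay above all marrow samples, by 1.41 (SE 0.08, limma adjusted p = 1.7e-16), a 2.66-fold difference. Utp20 (1.33), Wdr43 (1.32) and Wdr75 (1.07), parts of the early small subunit processome, and Rrp12 (1.01), an export factor, were also higher, as was the U3 snoRNP protein Rrp9 at 0.55. Heatr1 (0.21), Noc4l (0.17), Pno1 (-0.02) and Bysl (-0.11) were not called, although all act in small subunit assembly. Other probe sets did call some of them higher, 1 for Bysl at 0.79 (SE 0.14) and 2 of the 3 others for Noc4l at 0.29 and 0.38 (limma adjusted p = 0.012 and 0.00049). Of 38 other small subunit assembly factors, 28 were called higher and 1 lower, with a median of 0.61. The GTPase Bms1 was higher by 1.63 and Rrp7a by 2.01.

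All 9 large subunit assembly factors were called higher, with a median of 0.75. Ppan, which takes part in early pre-60S assembly, measured 7.57 and 7.38 in wild type and 7.29, 7.18 and 7.72 in deficient marrow. Over all tumours it ran from 8.54 to 9.47, with medians of 8.94 in wild type and 8.84 in deficient samples. No tumour came near the marrow samples. The gap between the tissues was 1.46 (SE 0.11, limma adjusted p = 3.0e-13), a 2.75-fold difference. Ebna1bp2 was higher by 1.13, the histone and ribosomal protein chaperone Grwd1 by 1.02, Noc2l by 0.92 and the methyltransferase Nop2 by 0.75. Pes1 and Bop1, which are partners in the PeBoW complex needed for 60S maturation, were higher by 0.55 and 0.66. The helicase Ddx18 was higher by 0.56 and Rrs1, which helps bring the 5S RNA into the large subunit, by 0.54. A second Pes1 probe set gave 1.87 (SE 0.18), so the size, though not the direction, depended on the probe set. Of 43 measured genes of 45 other large subunit factors, 40 were called higher and 0 lower, with a median of 0.82.

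The translation genes held the clearest opposite movement. Eif4ebp1 encodes 4E-BP1, which binds the cap-binding protein eIF4E and blocks initiation until it is phosphorylated. It measured 9.74 and 9.30 in wild type and 9.53, 9.31 and 9.09 in deficient marrow. In tumours it ran from 7.23 to 8.16 with a median of 7.63 in wild type and from 6.36 to 8.35 with a median of 7.56 in deficient samples. Every tumour lay below every marrow sample, and the difference was -1.82 (SE 0.19, limma adjusted p = 7.9e-10), a 3.53-fold lower signal. Its binding partner Eif4e was higher by 0.78 (SE 0.10) and the helicase Eif4a1 by 1.08 (SE 0.06). Cad, the multifunctional enzyme that starts pyrimidine synthesis, was higher by 0.96 (SE 0.11). With the mean of its probe sets Cad was at 0.17 and not called (limma adjusted p = 0.11). Of its other probe sets, 1 of mean signal 8.65 gave 0.34 (SE 0.14, limma adjusted p = 0.027). Another, of low mean signal 3.72, gave -0.78.

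**Figure D2:**
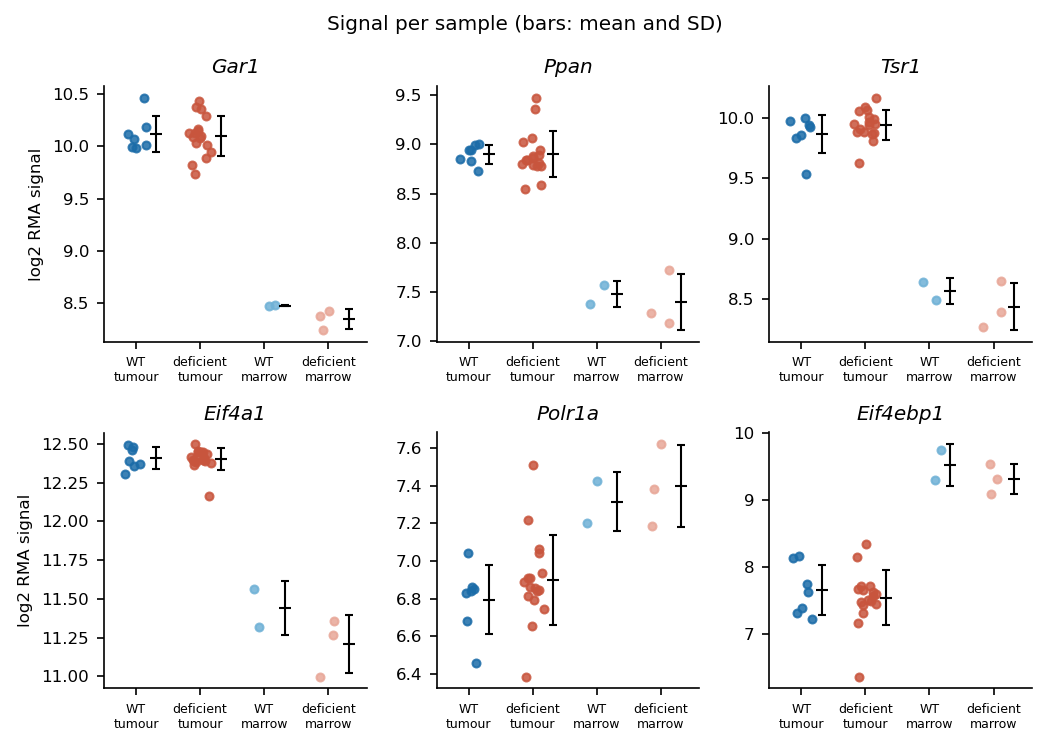
Log2 signal (y axis) of 6 genes in each of the 29 samples, by genotype and tissue (x axis); each point is a sample and the bars give mean and SD. Gar1, Ppan, Tsr1 and Eif4a1 are higher in every tumour than in every marrow sample, Eif4ebp1 is lower in every tumour, and the Polr1a groups overlap.

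The wider pathway was read from lists of other genes. Of 43 measured cytosolic ribosomal proteins, out of 76 listed, 27 were called higher and 4 lower, with a median of only 0.17. Of 23 measured genes of other translation initiation and elongation factors 17 were called higher and 2 lower, and of 17 nucleotide synthesis enzymes 12 and 1. The CTP synthase gene Ctps was higher by 1.63 and the nucleoside diphosphate kinase Nme1 by 1.31. Cell cycle genes went the other way, with 4 of 24 called higher and 13 lower and a median of -0.26. Mki67, a marker of dividing cells, was lower in tumours, at -0.96 (SE 0.08). The endogenous mouse Mycn gene was at 7.55 ± 0.17 (SD, n = 24) in tumours and 6.83 ± 0.44 (SD, n = 5) in marrow. Myc was at 5.07 ± 0.30 (SD, n = 24) in tumours and 9.16 ± 0.25 (SD, n = 5) in marrow, so the marrow samples had the higher Myc signal. Of the 11 genes of the MYC and MAX network, 4 were called higher in tumours and 4 lower. Mxd1, a repressor of this network, was lower at -4.81, and Mga was higher by 1.82. Human MYCN was not analysed here.

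**Figure D3:**
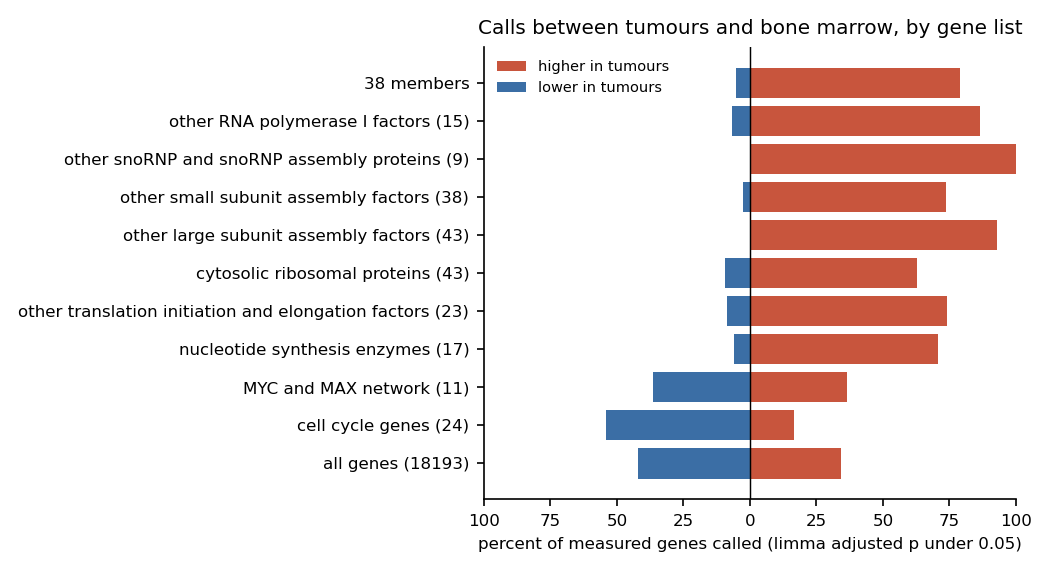
Percent of the measured genes of each list (y axis, number of genes in brackets) that limma called higher (right) or lower (left) in tumours than in marrow at adjusted p under 0.05 (x axis). Of the 38 members 30 were higher and 2 lower, of 43 other large subunit factors 40 and 0, and of 24 cell cycle genes 4 and 13, beside 34.2% and 42.2% of all genes.

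The size of the tissue difference depended on how the arrays were scaled. Centring each array on its median moved the median of all genes from -0.10 to -0.39 and that of the members from 0.76 to 0.48. It left 27 members called higher and 5 lower, beside 4711 and 10602 of 18193 genes. Dkc1, Bysl and Pno1 were the members newly called lower. Quantile normalization of the 29 samples gave 29 and 3, beside 5828 and 6664 genes, with Bysl newly called lower. With wild type samples only, where 2 marrow samples remain, 25 were higher and 2 lower, beside 4928 and 5426 genes. With deficient samples only the counts were 30 and 2, beside 5956 and 6666 genes. Members with more than 1 probe set can be read again from the others: of 37 further probe sets with mean signal over 5, 34 had the sign of the one used.

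Caspase-8 genotype was not accompanied by a called difference of any member in tumours. In limma 0 of 38 members and 0.0% of all genes were called, and 0 members had an unadjusted p under 0.05, against 583 of 18193 genes. Member differences, deficient minus wild type, ran from -0.25 to 0.18, and the 95% interval reached a median of 0.19 to each side. The smallest p belonged to Grwd1, whose wild type tumours averaged 8.56 ± 0.24 (SD, n = 7) and whose deficient tumours averaged 8.74 ± 0.22 (SD, n = 17), with a difference of 0.18 (SE 0.10, limma adjusted p = 0.9997). Without wild type tumour 6 it was 0.10. Rrs1 (0.15), Bysl (0.15) and Nhp2 (0.12) followed. Polr1b and Nop16 had the widest intervals, from -0.93 to 0.45 and from -0.89 to 0.38. Casp8 itself differed by -0.26 (SE 0.20) in tumours, and the labels do not say which part of the gene is deleted. The gap between 3′ and 5′ control signals on each array, which widens as RNA degrades, averaged 0.616 in wild type and 0.761 in deficient tumours. With it as a covariate limma again called 0 members and 0 of all genes. In that fit 31 of 38 member differences were positive, with a median of 0.055, against 0.0055 over all genes. Without the covariate 20 were positive, with a median of 0.014, against 0.0042 over all genes. The members' signals are correlated across tumours, so these signs are not independent.

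In bone marrow 34 of the 38 members had lower values in deficient than in wild type samples, and none passed the test. In limma 0 members were called, 0 had an unadjusted p under 0.05, and 0.022% of all genes were called, which is 4 genes. Those 4 genes were Xist, at 6.24, and the Y-linked Eif2s3y, Kdm5d and Uty, at -6.65, -3.74 and -2.91, so sex and genotype cannot be told apart in these samples. The median member difference was -0.15, against -0.01 over all genes, of which 52.4% were lower. Wdr43 measured 8.52 and 8.32 in wild type and 8.10, 7.95 and 8.04 in deficient marrow. Its difference, the one of smallest p among the members, was -0.39 (SE 0.18, limma adjusted p = 0.9996). Polr1b differed by -0.34, Ddx21 by -0.31 and Bysl by -0.37. The count depended on 1 sample: without wild type marrow 1, 24 members were lower and the median was -0.05, against 0.02 over all genes. Without wild type marrow 2, 33 members were lower and the median was -0.29, against -0.05 over all genes. A member's 95% interval reached a median of 0.45 to each side.

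The genotype effects in tumours and marrow, which use the same samples as above, were also compared directly. In limma's interaction contrast 0 members were called, 4 had an unadjusted p under 0.05, against 1424 of 18193 genes (7.83%), and 0.319% of all genes were called. The effect was more positive in tumours for 33 of 38 members, against 52.7% of genes. Without wild type marrow 1 that held for 27 members, and the member median was 0.10 in place of 0.17. Without wild type marrow 2 it held for 32 members, with a median of 0.27. The medians over all genes were -0.01 and 0.06 in these 2 fits. The contrast includes the marrow samples, in which sex and genotype cannot be told apart. Wdr43 gave 0.49 (SE 0.15, limma adjusted p = 0.27), Bysl 0.52 (SE 0.23), Npm1 0.25 and Noc4l 0.37.

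Across the 24 tumours the members varied about as much as other genes, with a median SD of 0.20 against 0.21 for genes with mean signal over 5. The probe set used for Eif4a1 varied least: it ran from 12.31 to 12.50 in wild type and from 12.16 to 12.50 in deficient tumours, with medians of 12.39 and 12.41. Its SD of 0.07 was lower than that of all but 0.231% of genes. The other Eif4a1 probe sets were less even, with differences between the title series described below of -0.32 (limma adjusted p = 0.00099) and -0.45 (limma adjusted p = 0.021). Npm1 followed with an SD of 0.10. At the other end Polr1b had an SD of 0.79 and a 6.14-fold range, Nop16 an SD of 0.72 and Eif4ebp1 an SD of 0.40. For the other members tumours lay close together, and 34 of 38 had an SD under 0.30.

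The wide spread of Polr1b and Nop16 followed the numbering of the samples. Sample titles hold a lower and a higher series of numbers, split at 100, with 10 tumours (3 wild type, 7 deficient) in the lower and 14 (4 and 10) in the higher series. The marrow samples all carry higher numbers. The sources used here do not say what the numbers stand for. In the lower series Polr1b ran from 6.11 to 6.93 with a median of 6.53, and in the higher series from 7.12 to 8.72 with a median of 7.96. The series did not overlap, and the difference, with genotype in the fit, was 1.39 (SE 0.14, limma adjusted p = 5.4e-07). Nop16 ran from 7.39 to 8.57 with a median of 7.95 in the lower and from 8.73 to 9.68 with a median of 9.26 in the higher series. It did not overlap either, with a difference of 1.30 (SE 0.12, limma adjusted p = 7.5e-08). By size these differences ranked 20 and 25 among 18193 genes. Only 93 genes, or 0.511%, had series that did not overlap.

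Of the other members, Dkc1 (0.32) and Fbl (0.22) were also called higher in the higher series, and Nop56 (-0.37) and Nolc1 (-0.36) lower. That makes 4 higher and 2 lower, beside 4.39% and 3.52% of all genes. The Dkc1 call was lost with the mean of its probe sets, at 0.09 (limma adjusted p = 0.42), since another of its probe sets gave -0.24. Nop56 ran from 11.20 to 11.55 in the lower and from 10.88 to 11.27 in the higher series. Its other probe set, of almost the same mean signal, differed by only -0.025 between the series (limma adjusted p = 0.80), so the Nop56 call rests on 1 of 2 probe sets. The other probe sets of Nolc1, at -0.17 and -0.24, were not called either. The series overlapped for Nop56, as they did for the other 3 genes of this group. Nop16's second probe set, with a mean signal of 5.25, differed by only -0.13 between the series, and Polr1b has a single probe set. The Nop16 split therefore rests on 1 of its 2 probe sets.

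Marrow signals of Polr1b, from 7.16 to 7.69, fell within the range of the higher series, below its median of 7.96. Within the higher series alone Polr1b was higher in tumours than in marrow by 0.63 (limma adjusted p = 0.0079), while the mean of the lower series minus that of marrow was -0.79. The pooled difference of 0.04 thus joins tumours on both sides. Polr1b and Nop16 also varied together within each series, a relation picked out after its values were seen. Because the pair was chosen for its likeness, its values are a description with no test. Pearson's r was 0.95 and Spearman's rho 0.89 over the 10 tumours of the lower series, and both were 0.94 over the 14 of the higher series. Without the 2 tumours farthest from the Polr1b median r was 0.90 and 0.92.

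**Figure D4:**
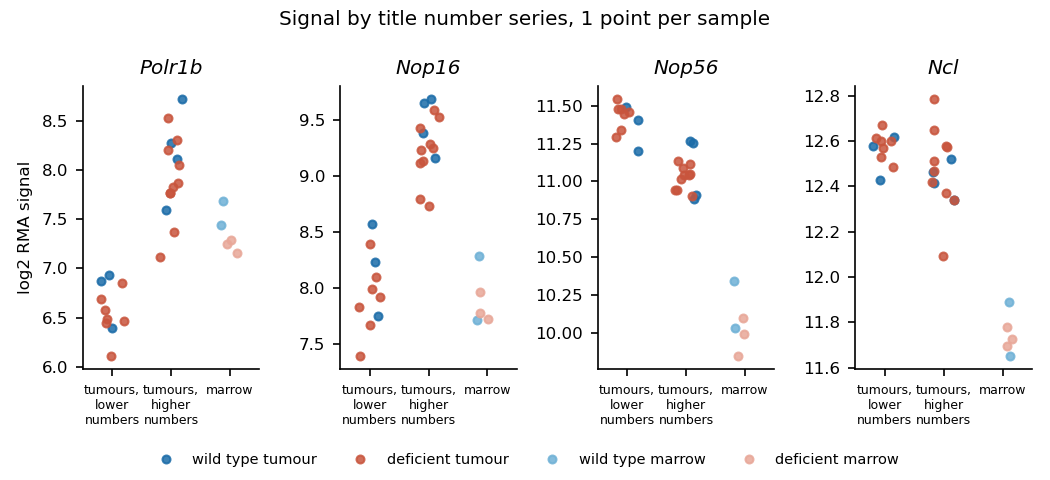
Log2 signal (y axis) of Polr1b, Nop16, Nop56 and Ncl in tumours with lower and higher title numbers and in marrow (x axis), 1 point per sample, coloured by genotype and tissue. Polr1b and Nop16 separate the tumour series without overlap, at 6.93 against 7.12 and 8.57 against 8.73 for the nearest samples, and the Ncl probe set shown has no such split. Each gene is shown by 1 probe set, and the other probe sets of Nop16 and Nop56 differed by -0.13 and -0.025 between the series. Of the 5 Ncl probe sets, another differed by -0.43 (limma adjusted p = 0.013) and 1 of low signal by 0.39 (limma adjusted p = 0.012). The rest were not called.

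The members' signals were moderately correlated with each other across tumours. Over the 703 pairs of members the median Pearson correlation across 24 tumours was 0.29, and 82.6% of pairs were positive. Over pairs of all genes the median was 0.01 and 51.5% were positive. Taken as deviations from the title series means the members' median was 0.35. The tumours share array processing, so these values are a description. On those deviations Bop1 and Grwd1, both large subunit factors, were the closest pair at 0.90, Polr1b and Nop16 followed at 0.89, Rrp12 and Bop1 reached 0.88, and Mybbp1a and Utp20 0.86. On the same scale Mybbp1a had the highest median correlation with the other members, 0.57. Gar1 stood apart, with a median of -0.14 and -0.68 with Eif4a1, although both genes were among those with clearly higher signals in tumours than in marrow.

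No member was called for a slope on the signal of either MYC gene. In tumours Mycn ran from 7.27 to 7.86, less than 1 log2 unit, and in limma 0 members were called for a slope on it, beside 0.0825% of all genes with positive and 0.088% with negative slopes. Before adjustment 2 members had p under 0.05, Nop16 with a slope of -1.91 (SE 0.74) and Bysl with -0.62 (SE 0.25), against 3061 genes (16.8%). Polr1b had a slope of -1.72 (SE 0.84), which became 0.07 with the title series in the fit. Rrp9 followed with -0.55 (SE 0.28). For Myc, which ran from 4.46 to 5.56, limma called 0 members and 0.0% of genes, and 0 members and 1906 genes (10.5%) had an unadjusted p under 0.05. Gar1 (-0.23), Ddx21 (-0.29), Npm1 (-0.12) and Eif4a1 (0.10) had the smallest p.

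Several assembly factors rose with the mean of 24 cell cycle genes, which ran from 10.03 to 10.55 over tumours. In limma 11 members had a called positive slope and 0 a negative one, beside 4.83% and 2.99% of all genes. They were 7 of the 10 small subunit factors (Heatr1, Pno1, Rrp9, Wdr75, Bysl, Rrp12 and Utp20) and 4 of the 9 large subunit factors (Ddx18, Grwd1, Ebna1bp2 and Bop1). Per log2 unit of the cell cycle mean, Pno1 rose by 1.72 (SE 0.32, limma adjusted p = 0.0019), Heatr1 by 1.45 (SE 0.26, limma adjusted p = 0.0016), Rrp9 by 1.40 (SE 0.31) and Ddx18 by 1.12 (SE 0.23). With the mean of its probe sets Heatr1 was at 0.71 and not called (limma adjusted p = 0.23). Its other probe sets have low mean signals, 4.98 and 3.88. In that setting 5 of the 11 members stayed called. On the probe sets used, Pno1, Heatr1 and Bysl varied with the cell cycle genes within tumours but were not called between tumour and marrow. Slopes were positive for 36 of 38 members, with a median of 0.65 against 0.05 over all genes. Gar1 (-0.27) and Ppan (-0.23), the members with the largest positive tissue differences, had negative slopes that were not called.

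Related lists that hold none of the members were read in the same fit, with no test between lists. Called positive slopes were held by 12 of 38 other small subunit factors, 8 of 43 other large subunit factors, 6 of 17 nucleotide synthesis enzymes, 2 of 15 other RNA polymerase I factors and 2 of 23 other translation factors. They were held by 0 of 9 other snoRNP proteins, 0 of 43 ribosomal proteins (median slope -0.07) and 0 of 11 genes of the MYC and MAX network, of which 1 had a negative slope. Markers of other cell types were read in the same way. Of 8 fibroblast and matrix markers 2 were called, with a median slope of 2.19, and of 8 macrophage markers 1, with a median of 1.80. The endothelial list had 0 of 8 called and a median of 1.60, the blood cell list 0 of 19 and -0.09, the Schwann cell list 0 of 4 and 0.19, and the sympathoadrenal list 1 of 11, with a negative slope, and a median of -0.65. The fibroblast and matrix list mean ran from 6.58 to 9.41 over tumours, and its part in the members' slopes was not tested. The count of 11, beside 1422 of 18169 genes, depended on few tumours, and the count over all genes fell with it. Without wild type tumour 6, 5 members and 698 genes were called. Leaving out deficient tumour 9 gave 7 members and 818 genes. Without both tumours farthest from the median of the cell cycle mean, 0 members and 87 genes were called. The 11 slopes then still ran from 0.78 to 1.90, with a smallest adjusted p of 0.054 in limma.

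**Figure D5:**
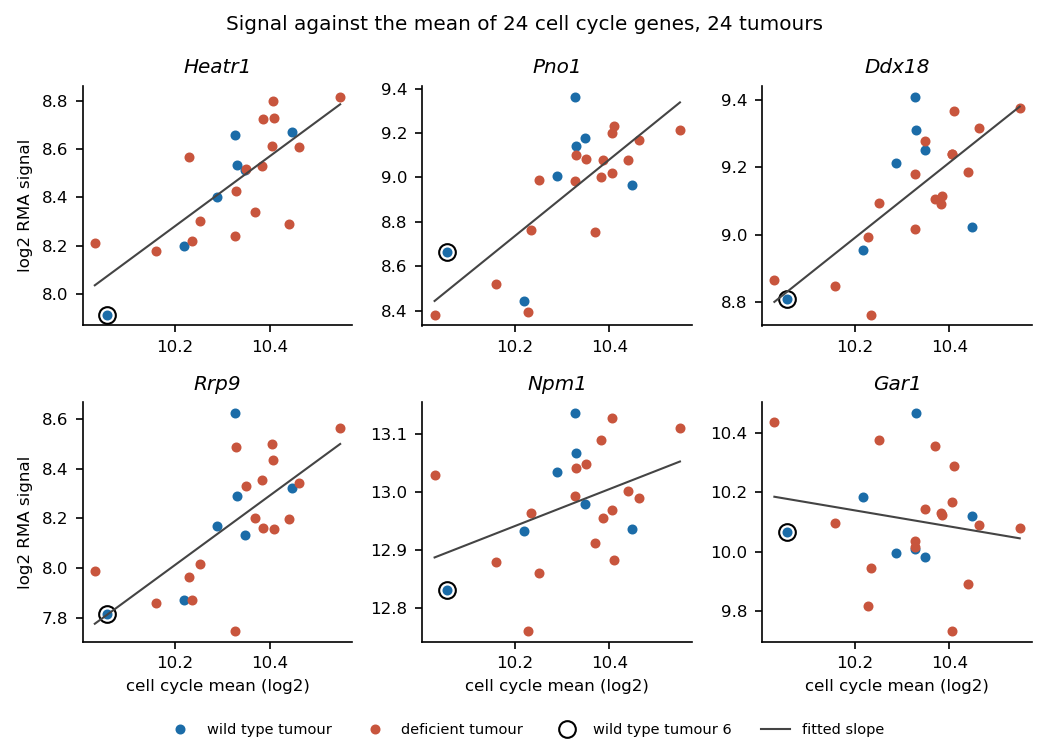
Log2 signal (y axis) of 6 genes against the mean of 24 cell cycle genes (x axis, log2) in the 24 tumours, 1 point per tumour, with the limma slope drawn through the mean and wild type tumour 6 ringed. Heatr1, Pno1, Ddx18 and Rrp9 rise by 1.45, 1.72, 1.12 and 1.40 per unit, and Npm1 and Gar1 have slopes of 0.32 and -0.27 that were not called. Each gene is shown by 1 probe set, and with the mean of its probe sets Heatr1 was at 0.71 and not called.

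Members with CACGTG in the start-site window, shown above, had a median tumour minus marrow difference of 1.05 (n = 10), and the 22 members with a window and no match had 0.77. For CGGAAG the medians were 1.05 with (n = 18) and 0.65 without (n = 14), and for CACGCG 0.80 with (n = 11) and 0.96 without (n = 21). For CACGTG the ranges overlapped: Tsr1 and Utp20 hold the motif and were among the largest differences, Pno1 holds it and was at -0.02, and Gar1 and Ppan, at 1.70 and 1.46, have no CACGTG in these windows.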

How the data were processed

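Per the labels' protocols, Trizol-extracted total RNA was turned into biotinylated cRNA by the Affymetrix Two-Cycle method and hybridised to a mouse 3′ array, 1 array per sample. Signals were deposited as log2 values, which run from 1.87 to 14.4. The authors made them with RMA in Partek 6.6, per the submitters' processing notes. RMA compresses low signals, its quantile step takes out any shift that most genes share, and the sources used here do not say whether it was run on all 29 arrays at once. Precision is limited by the number of arrays.

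Of 45101 probe sets, 64 were controls, 34945 had 1 gene symbol in the platform annotation, 932 several and 9160 none listed. Symbols were updated through the Entrez ID for 34741. The probe set of highest mean over all samples stood for each gene. Fits used limma 3.58.1 in R 4.3.3 (two-sided moderated tests from eBayes after lmFit, Benjamini-Hochberg adjustment over all genes, call at 0.05), over 4 groups for tissue and interaction, within tumours or marrow for genotype, and over tumours for title series (with genotype) and slopes. Comparisons share samples. Genes of the cell cycle list, Mycn and Myc were left out of the fit on their own signal. The fits were tested on simulated data. Motifs were searched in RefSeq windows, and figures drawn with matplotlib 3.10.9.

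The members and the lists, 6 of members and 15 of other genes, were chosen with earlier results of these data known. Named were all members for tissue and the 4 of smallest p for each other test. For some of the other lists, some of the 3 genes of smallest p were named. Others were named after their values were seen. Alternatives concerned how probe sets are combined, a filter at mean signal 5, the scaling of arrays, weights per array, eBayes with trend, added covariates, and subsets of samples. Leaving out each tumour for the title series and the slopes was added after seeing the data.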

Additional observations from a re-analysis of the deposited data

Results flagged for a closer look

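Within the 7 wild type tumours, 38 members were checked for a sample far from the others by Dixon's test, which flags about 1 in 20 groups by chance, and 4 had one. Gar1 was highest in wild type tumour 7, at 10.47. Wild type tumour 6 was lowest for 3 assembly factors, Wdr75 at 9.13, Tsr1 at 9.54 and Grwd1 at 8.07. It also had one of the lowest cell cycle means, 10.06, against a range of 10.03 to 10.55 over all tumours. The deficient tumours, more than 10, were not tested, nor were the marrow samples.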

How the results depend on the processing

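Counts of called members were compared under 201 alternatives, of which 194 stayed within 1.5 times the count reported. For genotype in tumours, genotype in marrow, the interaction and the slopes on Mycn and Myc, the count reported was 0. There an alternative that again called 0 members counted as unchanged. Most alternatives belonged to these comparisons, so the 194 says little about the other counts. The count for the Mycn slope became 1 with array weights, beside 658 of 18192 genes. It ran from 0 to 1 when 1 tumour was left out: the member was Bysl, without wild type tumour 6, beside 635 genes. The count for the cell cycle slope became 6 with probe sets averaged per gene and 6 with arrays centred on their median, beside 909 and 399 genes. It was 0 without the 2 tumours farthest from the median, beside 87 genes, and ran from 5 to 13 when 1 tumour was left out. The 5, without wild type tumour 6, stood beside 698 genes. The 13, without deficient tumour 14, stood beside 833 genes with positive and 547 with negative slopes. The members not called between tumours and marrow had no settled sign. Polr1b was at -0.25 centred, -0.22 after quantile normalization, -0.013 with array weights, -0.029 with the 3′ minus 5′ covariate and -0.0092 in wild type samples. Dkc1 was at -0.28, -0.00081 with that covariate and -0.040 in deficient samples. Heatr1 was at -0.024 with the mean of its probe sets and -0.075 centred, and Noc4l at -0.12 centred, -0.00068 after quantile normalization and -0.013 in wild type samples. Bysl was at 0.34 with the mean of its probe sets and 0.14 in deficient samples. Pno1 was at 0.089 with the covariate, 0.049 in deficient samples and 0.020 in the higher title series. Leaving out 1 marrow sample gave -0.023 to 0.099 for Polr1b, -0.028 to 0.047 for Dkc1, -0.24 to 0.012 for Bysl and -0.11 to 0.083 for Pno1. The Bysl genotype difference was -0.0054 in tumours of the lower title series and 0.0067 in marrow with the mean of its probe sets. The Polr1b slope on Mycn was 0.071 with the title series in the fit, and the Eif4a1 slope on Myc was -0.024 centred. The causes were not tested. Array number limits all of these, above all the 5 marrow samples.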

Other observations

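Over the 24 tumours, as deviations from the title series means, the genes most like Polr1b among all 18193 were Nop16 (r = 0.89), Dync1li1 and Knop1 (0.83 each), Vamp3 (0.81), Adat1 (0.80) and Rad1 (0.79). These values describe 24 arrays that share processing, and the genes were picked for their likeness. Each was also higher in the higher title series in limma: Dync1li1 by 0.72, Knop1 by 0.66, Vamp3 by 0.33, Adat1 by 0.60 and Rad1 by 0.90, with adjusted p from 4.8e-05 (Knop1) to 0.0073 (Vamp3). In the tissue comparison they differed, with Knop1 at 0.83 and Vamp3 at -0.26.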
